A study of Mus musculus with 22 samples.

Results

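A set of 10 genes of TGF-beta and PDGF signalling was followed across the livers of Cyp2c70 knockout and wild-type mice fed chow or ursodeoxycholic acid (UDCA). The genes were chosen by symbol, as the rows annotated Tgfb1, Tgfb2, Tgfb3, Tgfbr1, Tgfbr2, Ltbp2, Pdgfa, Pdgfb, Pdgfc and Pdgfra, and all 10 were found among the 24011 genes with a symbol. Total liver RNA of 22 female mice on the C57BL/6J background was hybridised to Affymetrix mouse gene arrays, 1 array per mouse, and all mice were 12 weeks old. Of the wild-type mice, 5 ate regular chow (WT_chow) and 6 ate chow with UDCA (WT_UDCA). Of the Cyp2c70 knockouts, 5 ate regular chow (KO_chow) and 6 the UDCA diet (KO_UDCA). UDCA is a hydrophilic bile acid, and it made up 0.1% of the diet for 7 weeks, starting at the age of 5 weeks. Cyp2c70 encodes the mouse enzyme that makes the hydrophilic muricholic acids, and the comparisons ask what its loss and UDCA feeding do to the liver. Neither the deleted exons nor the cells that carry the deletion are named in the labels. Replicate numbers only name mice and pair nothing.

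TGF-beta is secreted in a latent form, tied to latent TGF-beta binding proteins of the matrix, and is released by integrins, proteases or thrombospondin. The free ligand binds the type II receptor, which activates the type I receptor and, through it, the SMAD transcription factors. PDGF chains pair into dimers that act on receptor tyrosine kinases. In the injured liver, TGF-beta is known as the main inducer of collagen in stellate cells and portal fibroblasts, and PDGF is known as their mitogen.

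Cyp2c70 itself was at 11.49 ± 0.14 in WT_chow, 11.43 ± 0.14 in WT_UDCA, 10.65 ± 0.12 in KO_chow and 10.51 ± 0.17 in KO_UDCA (mean log2 intensity ± SD). It fell by 0.83 on the log2 scale in KO_chow against WT_chow (SE 0.10, 1.78-fold, limma adjusted p = 3.2e-06), and no knockout mouse reached the lowest wild-type mouse. Of the 11 measured hepatocyte genes of the marker list, 10 had mean log2 intensities of 10.71 to 13.02 in the chow-fed groups, with albumin highest. The other, the urea cycle enzyme Ass1, was at 4.62 in WT_chow and 4.84 in KO_chow. The mean over the list lay between 11.09 and 11.31. On the first principal component of all genes, which held 26.7% of the variance, KO_chow replicates 2 and 5 stood apart at 53.4 and 51.9, while the other KO_chow mice lay between 15.7 and 32.5. Mice of the other 3 groups lay between -13.1 and -0.66. Results on the 10 genes and counts over the gene lists are therefore also given without these 2 mice where a call or a count changes.

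All 10 genes were higher in knockout than in wild-type livers on chow. Each was called at an adjusted p below 0.05 (limma, Benjamini-Hochberg over 24011 genes), where 7.69% of all genes were called higher and 13.7% were called in either direction. In each of the 10, every KO_chow mouse lay above every WT_chow mouse, which held for 5.45% of all genes in that direction. The 10 genes were chosen with earlier results of these data known, so these shares are context and not a test of the set. The log2 changes ran from 0.56 for Pdgfa to 1.21 for Tgfb2, with a median of 0.73 against -0.037 over all genes. Between 0.779% and 5.91% of all genes had a larger absolute change than a given one of the 10. Without KO_chow replicates 2 and 5, 7 of the 10 were called, and Tgfb1, Tgfbr2 and Pdgfa were not. In that fit, 1089 of the 24011 genes were called in either direction. In whole-liver RNA, more cells of a type and more RNA per cell cannot be told apart.

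**Figure D1:**
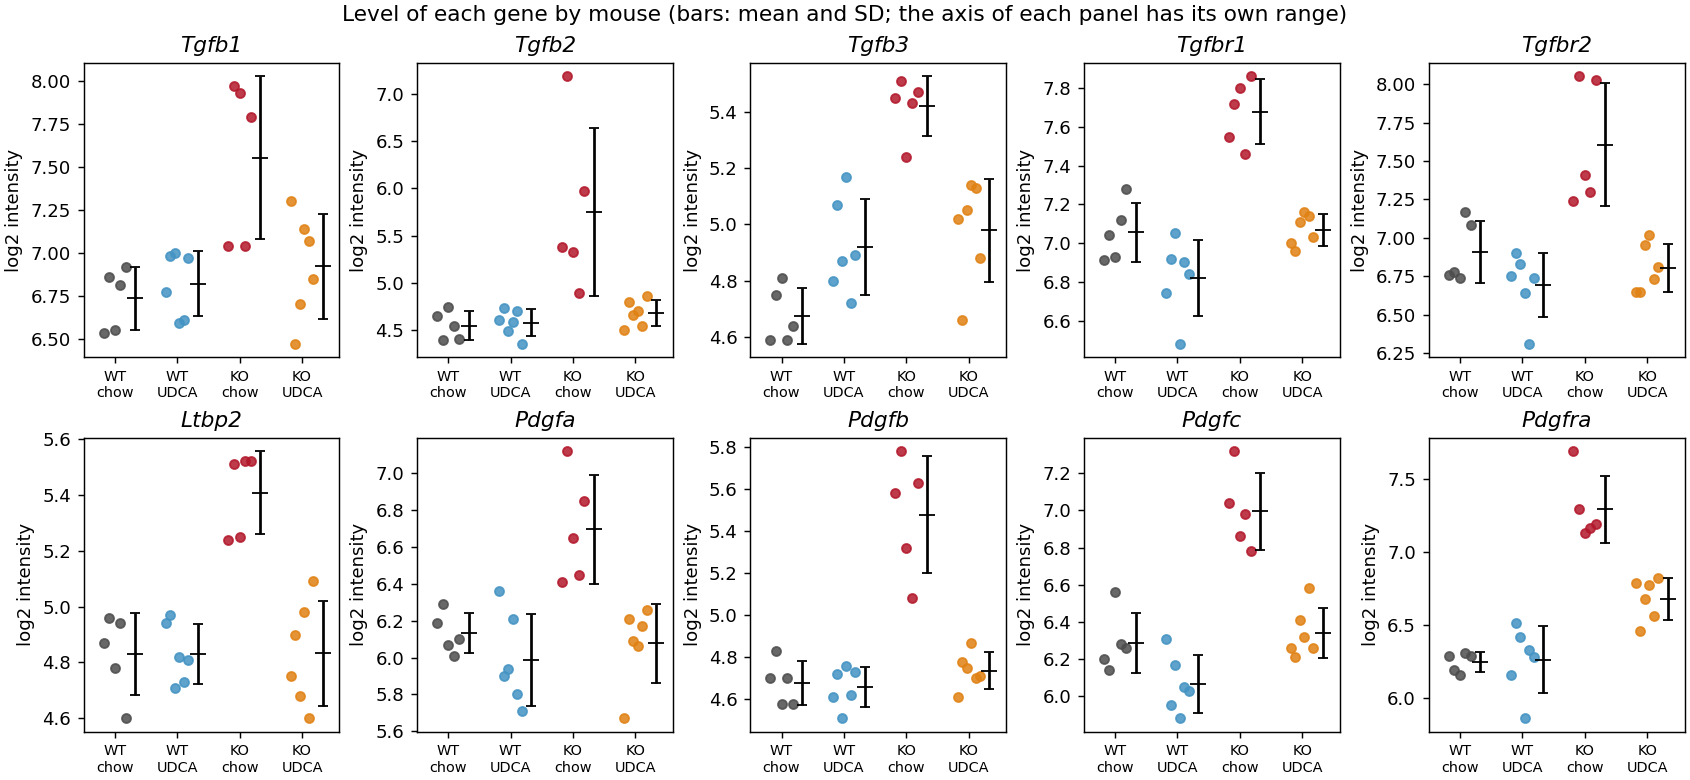
Log2 intensity of each of the 10 genes in every mouse, in 1 panel per gene, with points for mice and bars for the group mean ± SD (n = 5, 6, 5 and 6 from left to right). Every KO_chow point lies above every WT_chow point in all 10 panels, and the KO_chow points of Tgfb2 spread from 4.89 to 7.19.

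Promoter windows of 250 bases upstream of the start site were read from RefSeq (GRCm38.p6) for 8 of the 10 genes, with 10 windows in all because some genes have more than 1 start. Both windows printed here lie outside the transcribed span of their gene. They show the window with the most GC boxes (GGGCGG) of the 10 beside one that holds the SMAD motif. Capitals mark GGGCGG (the GC box, on either strand, so also CCGCCC) in the Tgfb1 window at chr7:25686752-25687001, plus strand, of which 75.2% is G or C. Capitals mark CAGACA, a motif bound by SMAD proteins, in the Pdgfc window at chr3:81036166-81036415, plus strand, of which 50.8% is G or C.
Tgfb1: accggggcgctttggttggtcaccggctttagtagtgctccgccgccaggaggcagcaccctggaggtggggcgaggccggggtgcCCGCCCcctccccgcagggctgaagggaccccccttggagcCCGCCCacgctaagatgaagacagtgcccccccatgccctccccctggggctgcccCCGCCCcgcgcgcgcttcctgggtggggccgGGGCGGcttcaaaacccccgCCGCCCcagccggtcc
Pdgfc: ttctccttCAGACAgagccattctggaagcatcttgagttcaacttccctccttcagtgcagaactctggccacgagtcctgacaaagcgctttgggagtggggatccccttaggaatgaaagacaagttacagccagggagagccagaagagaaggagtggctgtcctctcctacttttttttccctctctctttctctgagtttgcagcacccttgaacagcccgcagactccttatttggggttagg
The Tgfb1 window held 5 GC boxes that do not overlap, and the Pdgfc window held CAGACA 1 time, 242 bases before the start. CAGACA, on either strand, was in 3 of the 10 windows (Tgfb2, Pdgfc and 1 of those of Tgfbr1), against 17.1% of 32851 RefSeq promoter windows of the same length. Of the 10 windows, 5 lie inside the annotated span of their gene, among them the Tgfb2 window and the Tgfbr1 window with CAGACA. The AP-1 motif TGANTCA was in 0 of the 10, against 6.75% of all windows. The GC box was in 5 of the 10, from 4 genes, against 32.7%, and the TATA box TATAAA was in the Tgfb2 window alone, against 12.4%. The last 2 motifs were chosen after the sequences were seen, and a match is a description of letters, not of a bound site.

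Tgfb1 encodes the most widely expressed TGF-beta ligand, made by macrophages, platelets and many other cells. Its log2 intensity was 6.53, 6.86, 6.55, 6.81 and 6.92 in WT_chow replicates 1 to 5 and 7.04, 7.97, 7.93, 7.04 and 7.79 in KO_chow replicates 1 to 5. The KO_chow mice fell into a high set of 3 and a pair at 7.04 that stood only 0.12 above the highest WT_chow mouse. Tgfb1 rose by 0.82 on the log2 scale (SE 0.18, 1.76-fold, adjusted p = 0.00329). KO_UDCA ran from 6.47 through a median of 6.96 to 7.30, and WT_UDCA from 6.59 through 6.87 to 7.00. UDCA-fed knockouts were lower than chow-fed ones by a log2 change of -0.63 (SE 0.17, 1.55-fold, adjusted p = 0.0188), yet these groups overlapped, because KO_UDCA reached 0.26 above the lowest KO_chow mice. This was the least stable of the 10 decreases: its adjusted p was 0.0808 in a fit to those groups alone, and 0.0758, 0.0616 or 0.0643 without KO_chow replicate 2, 3 or 5.

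Tgfb2, a ligand with prominent expression in biliary epithelium and mesenchyme, had the largest mean rise of the 10 and the widest spread. WT_chow mice stood at 4.64, 4.39, 4.74, 4.54 and 4.40, and KO_chow mice at 5.38, 7.19, 5.32, 4.89 and 5.97. Replicate 2 stood far above the other KO_chow mice, and the group SD was 0.89 against 0.15 in WT_chow. The rise was 1.21 (SE 0.25, 2.31-fold, adjusted p = 0.0021), and 0.66 without KO_chow replicates 2 and 5 (adjusted p = 0.00205). KO_UDCA mice lay between 4.50 and 4.86 with a median of 4.68, close to WT_UDCA at 4.35 to 4.73 with a median of 4.59. UDCA feeding of knockouts went with a change of -1.07 (SE 0.24, 2.11-fold, adjusted p = 0.0049), which became -0.52 without those 2 mice and had an adjusted p of 0.0511 in a fit to the groups compared alone. Tgfb2 exceeded the median intensity of its array on 4 of the 22 arrays, so its wild-type level sat low on the scale.

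Tgfb3, the third TGF-beta ligand and one made largely by mesenchymal cells, had a narrow spread. It stood at 4.59, 4.75, 4.81, 4.59 and 4.64 in WT_chow and at 5.45, 5.51, 5.24, 5.43 and 5.47 in KO_chow. The lowest knockout lay 0.43 above the highest wild type. Tgfb3 rose by 0.75 (SE 0.10, 1.68-fold, adjusted p = 1.61e-05). KO_UDCA ran from 4.66 through a median of 5.03 to 5.14, and WT_UDCA from 4.72 through 4.88 to 5.17. The change under UDCA in knockouts was -0.44 (SE 0.09, 1.36-fold, adjusted p = 0.00359), the smallest decrease of the 10, and the groups were 0.10 apart. Its adjusted p was 0.0638 without KO_chow replicates 2 and 5. Tgfb3 exceeded the median intensity of its array on 11 of the 22 arrays.

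Tgfbr1 encodes the type I receptor kinase that phosphorylates SMAD2 and SMAD3. Its values were 6.91, 7.04, 6.93, 7.12 and 7.28 in WT_chow and 7.55, 7.72, 7.80, 7.46 and 7.86 in KO_chow. No values were shared, and the spread in KO_chow (SD 0.17) was near that in WT_chow (SD 0.15). The rise was 0.62 (SE 0.10, 1.54-fold, adjusted p = 0.000211). KO_UDCA mice lay close together, from 6.96 through 7.07 to 7.16, and WT_UDCA from 6.48 through 6.87 to 7.05. The change in knockouts under UDCA was -0.61 (SE 0.10, 1.53-fold, adjusted p = 0.000215), and every KO_UDCA mouse was below every KO_chow mouse.

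Tgfbr2 encodes the type II receptor, which binds the ligand first. WT_chow mice were at 6.76, 6.78, 6.74, 7.17 and 7.08, and KO_chow mice at 7.24, 8.05, 7.41, 7.30 and 8.03. Replicates 2 and 5 carried the top of the range, while replicate 1 was 0.07 above the highest WT_chow mouse, the narrowest gap of the 10 genes. Tgfbr2 rose by 0.70 (SE 0.15, 1.62-fold, adjusted p = 0.00292), and the difference was 0.41 without those 2 mice (adjusted p = 0.0832). KO_UDCA ran from 6.65 through 6.77 to 7.02, and WT_UDCA from 6.31 through 6.74 to 6.90. Knockouts on UDCA differed from knockouts on chow by -0.81 (SE 0.15, 1.75-fold, adjusted p = 8e-04), or by -0.52 without the pair (adjusted p = 0.0278).

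Ltbp2 belongs to the latent TGF-beta binding proteins by sequence, and it is known as a component of elastic microfibres that does not carry latent TGF-beta itself. It stood at 4.87, 4.96, 4.78, 4.94 and 4.60 in WT_chow and at 5.24, 5.51, 5.25, 5.52 and 5.52 in KO_chow. The knockouts formed a narrow band with an SD of 0.15, the same as in WT_chow. Ltbp2 rose by 0.58 (SE 0.10, 1.49-fold, adjusted p = 0.000396). KO_UDCA, from 4.60 through 4.82 to 5.09, and WT_UDCA, from 4.71 through 4.81 to 4.97, were centred on the WT_chow level. The change under UDCA in knockouts was -0.58 (SE 0.10, 1.49-fold, adjusted p = 0.000351), with no overlap. Ltbp2, too, exceeded the array median on 11 of the 22 arrays.

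Pdgfa encodes the A chain, which signals mainly through PDGFRA. Pdgfa was at 6.19, 6.29, 6.07, 6.01 and 6.10 in WT_chow and at 6.41, 7.12, 6.65, 6.45 and 6.85 in KO_chow. Replicates 1 and 4 of KO_chow were close to the wild-type range, and replicate 2 was highest. It rose by 0.56 (SE 0.14, 1.48-fold, adjusted p = 0.00734), the smallest rise of the 10. KO_UDCA ran from 5.67 through 6.13 to 6.26, and WT_UDCA from 5.71 through 5.92 to 6.36. In knockouts UDCA went with a change of -0.62 (SE 0.13, 1.54-fold, adjusted p = 0.0033). Without KO_chow replicates 2 and 5, the rise was 0.37 (adjusted p = 0.153) and the change under UDCA -0.43 (adjusted p = 0.1).

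Pdgfb encodes the B chain, the PDGF ligand best known as a mitogen of stellate cells. Its level was 4.70, 4.83, 4.58, 4.70 and 4.58 in WT_chow and 5.58, 5.78, 5.32, 5.08 and 5.63 in KO_chow. The lowest knockout was 0.25 above the highest wild type, although the SD was 0.28 in KO_chow against 0.10 in WT_chow. Pdgfb rose by 0.80 (SE 0.10, 1.74-fold, adjusted p = 1.02e-05). KO_UDCA mice lay between 4.61 and 4.87 around a median of 4.73, and WT_UDCA mice between 4.51 and 4.76 around 4.67. The change under UDCA in knockouts was -0.74 (SE 0.10, 1.67-fold, adjusted p = 2.58e-05), the most significant decrease among the 10. Pdgfb exceeded the array median on 5 of 22 arrays, those of KO_chow.

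Pdgfc encodes the C chain, which is secreted as a latent dimer and cut free by proteases such as tissue plasminogen activator. It was at 6.20, 6.14, 6.56, 6.28 and 6.26 in WT_chow and at 7.04, 7.32, 6.86, 6.98 and 6.78 in KO_chow. Here replicate 5, high for most of the other genes, was the lowest knockout, and it still lay 0.22 above the wild types. Pdgfc rose by 0.71 (SE 0.11, 1.63-fold, adjusted p = 8.87e-05). KO_UDCA ran from 6.21 through 6.29 to 6.58, and WT_UDCA from 5.88 through 6.04 to 6.31. Under UDCA the knockouts differed from those on chow by -0.66 (SE 0.10, 1.58-fold, adjusted p = 0.000172).

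Pdgfra, the receptor for the A and C chains and a gene of quiescent and activated fibroblasts, had the widest gap between the genotypes among the 10. WT_chow mice were at 6.29, 6.19, 6.16, 6.31 and 6.29, and KO_chow mice at 7.69, 7.29, 7.13, 7.16 and 7.19. The lowest knockout lay 0.82 above the highest wild type, and the highest knockout was replicate 1, not 2 or 5. Pdgfra rose by 1.04 (SE 0.11, 2.06-fold, adjusted p = 1.57e-06), and by 1.08 without KO_chow replicates 2 and 5 (adjusted p = 3.37e-05). KO_UDCA ran from 6.46 through 6.73 to 6.82, and WT_UDCA from 5.86 through 6.31 to 6.51. UDCA feeding of knockouts went with a change of -0.61 (SE 0.11, 1.53-fold, adjusted p = 0.000814). The KO_UDCA mice stood between the KO_chow and WT_chow mice without meeting either.

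**Figure D2:**
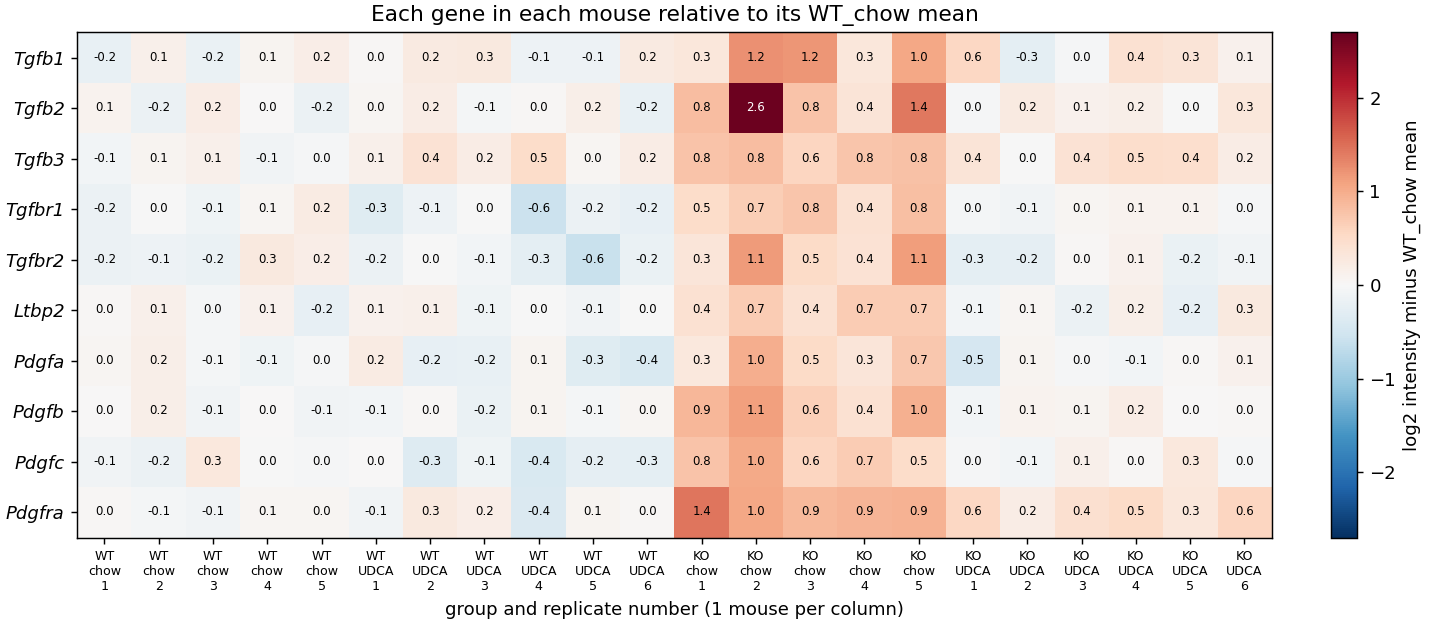
Log2 intensity of each gene in each mouse minus its mean over WT_chow, with genes in rows and mice in columns, and red for higher and blue for lower values. The KO_chow columns are positive in every row, the deepest cell is Tgfb2 in KO_chow replicate 2, and the Pdgfra row stays positive in all 6 KO_UDCA mice.

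The 10 genes differed in how the KO_chow mice spread. Tgfb1, Tgfb2, Tgfbr2, Pdgfa and Pdgfb had KO_chow SDs of 0.28 to 0.89, whereas Tgfb3, Tgfbr1, Ltbp2, Pdgfc and Pdgfra had SDs of 0.10 to 0.23. The median SD over the 10 genes was 0.252 in KO_chow and 0.15 in WT_chow, and over all genes it was 0.193 and 0.168. Replicate 2 was the highest KO_chow mouse for 7 of the 10 genes. The mean of the 10 genes above WT_chow was 0.65, 1.14, 0.68, 0.52 and 0.90 in KO_chow replicates 1 to 5. All 5 KO_chow means lay above those of the KO_UDCA mice, whose highest was 0.21.

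Under UDCA, all 10 genes were lower in knockouts than in knockouts on chow. Each was called (limma, adjusted p below 0.05), where 6.22% of all genes were called lower and 11.2% in either direction. In 9 of the 10, every KO_UDCA mouse lay below every KO_chow mouse, against 3.27% of all genes, and Tgfb1 was the exception. As the genes were chosen with earlier results known, these shares do not test the set either. The median log2 change was -0.63 against 0.033 over all genes. Leaving out KO_chow replicates 2 and 5, 7 of the 10 were called, and Tgfb1 (-0.41, adjusted p = 0.293), Tgfb3 and Pdgfa were not. Over all genes, 673 of 24011 were called in that fit. The comparison shares its KO_chow mice with the comparison of genotypes on chow, so opposite signs in both are not separate observations.

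Knockouts on UDCA were also set against wild types, which do not enter that contrast. Against WT_chow, 0 of the 10 were called in the limma fit, as against 0.025% of all genes, and 2 had an unadjusted p below 0.05, as against 5.62% of all genes. Pdgfra was 0.43 higher (95% interval 0.21 to 0.66, adjusted p = 0.358), and its groups did not overlap, which held for 0.433% of all genes in that direction. Tgfb3 was 0.31 higher (95% interval 0.11 to 0.50, adjusted p = 0.579). The mean of Pdgfra in KO_UDCA kept 41.6% of its difference between KO_chow and WT_chow, and that of Tgfb3 kept 41.1%. For Tgfb1 and Tgfb2 the remainders were 22.8% and 11%, and for the other 6 genes they lay between -15.2% and 7.36%. The intervals of the other 8 genes included 0. They reached 0.54 for Tgfb1 and 0.63 for Tgfb2 but no more than 0.26 for the others, so a remaining difference of that size was not excluded by the intervals.

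**Figure D3:**
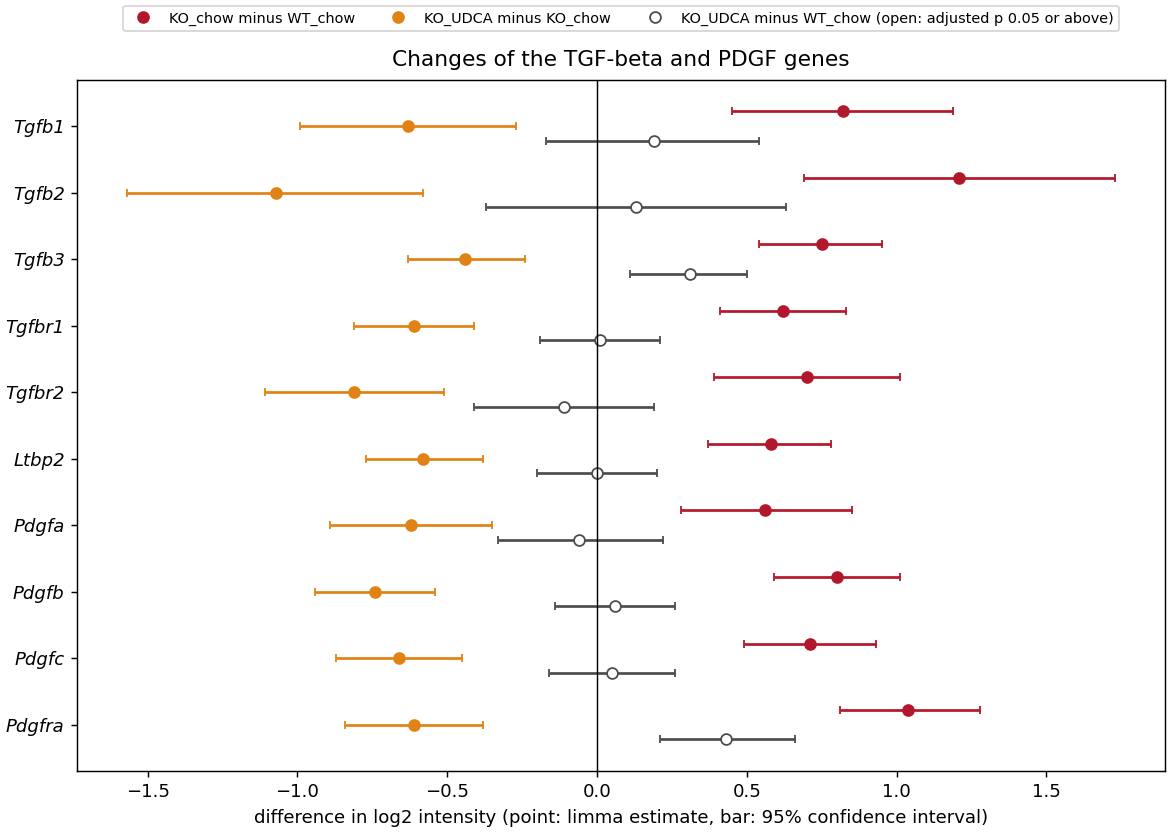
Differences in log2 intensity for each gene (points, limma estimates; bars, 95% intervals): KO_chow minus WT_chow in red, KO_UDCA minus KO_chow in orange and KO_UDCA minus WT_chow in grey, open where the adjusted p was 0.05 or above. The red bars lie right of 0 and the orange bars left of 0 for all 10 genes, and the grey bars of Tgfb3 and Pdgfra alone lie clear of 0.

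Against wild types on the same diet, 0 of the 10 were called in KO_UDCA by limma, where 0.0167% of all genes were called. Unadjusted p-values were below 0.05 for 3 of the 10, as they were for 5.45% of all genes. Pdgfra was 0.42 higher (95% interval 0.20 to 0.64, adjusted p = 0.43), Pdgfc 0.27 higher (0.07 to 0.48, adjusted p = 0.8) and Tgfbr1 0.25 higher (0.05 to 0.44, adjusted p = 0.839). The groups of these 3 genes overlapped. For Tgfb3, the difference from WT_UDCA was 0.06 (-0.13 to 0.25), beside the 0.31 from WT_chow.

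In WT_UDCA against WT_chow, 0 of the 10 were called by limma, and 0% of all genes were. An unadjusted p below 0.05 was found for 3 of the 10, as for 5.57% of all genes: Tgfb3 was 0.25 higher (adjusted p = 0.801), Tgfbr1 differed by -0.23 (adjusted p = 0.857) and Pdgfc by -0.22 (adjusted p = 0.879). The intervals of all 10 genes lay within -0.51 and 0.53.

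The genotype by diet interaction asks whether UDCA changed a gene differently in knockouts and wild types. The difference was negative for all 10, from -1.11 for Tgfb2 to -0.38 for Tgfbr1, with an unadjusted p below 0.05 for 10 of 10 as against 16.3% of all genes. It was called for 4 of the 10, where 2.07% of all genes were called lower and 2.67% in either direction. These were Pdgfb (-0.72, SE 0.14, adjusted p = 0.00574), Tgfb3 (-0.69, SE 0.13, adjusted p = 0.00636), Ltbp2 (-0.57, SE 0.14, adjusted p = 0.0243) and Pdgfra (-0.62, SE 0.16, adjusted p = 0.0341). Of the other 6, Tgfb2 had an adjusted p of 0.0831 and the rest 0.114 to 0.188. The interaction uses the same KO_chow mice as the rise on chow, in genes chosen with earlier results known. Its signs are therefore not separate observations. Without KO_chow replicate 2, and without replicates 2 and 5, 2 of the 10 were called, Tgfb3 and Pdgfb. Over all genes, 301 and 207 of 24011 were called in these fits. Without replicates 2 and 5, Ltbp2 had an adjusted p of 0.138 and Pdgfra of 0.0875. The Ltbp2 call also ended without KO_chow replicate 5 or WT_chow replicate 5. The Pdgfra call also ended without WT_chow replicate 1, 2 or 3, WT_UDCA replicate 2, 3, 5 or 6, or KO_UDCA mice 2, 3 or 5. With 1 mouse left out its adjusted p reached 0.0623 at most. When KO_chow replicate 4 was left out, 6 of the 10 were called, as were 1219 of all genes.

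Most genes that store and release TGF-beta were higher in KO_chow. Of the 18 measured genes of that list, 12 were higher and 1 lower in KO_chow against WT_chow (median log2 change 0.59), and 1 was higher and 13 lower in KO_UDCA against KO_chow (median -0.44). Of all genes, 6.03% were called lower in the first of these comparisons and 5.03% higher in the second. The shares in the other direction are given above, and the lists that follow are to be read beside the same shares. Thbs1, a thrombospondin that activates latent TGF-beta, rose by 2.20 (SE 0.31, 4.59-fold, adjusted p = 3.36e-05) and changed by -2.29 under UDCA. Plat, tissue plasminogen activator, rose by 1.89 and Mmp2, a gelatinase, by 1.28. Itgb8 and Itgb6, integrin chains that release TGF-beta from its latent complex, rose by 1.26 and 0.62. Of the binding proteins that carry latent TGF-beta, Ltbp1 rose by 0.56 and Ltbp3 by 0.34, while Ltbp4 differed by 0.13 (adjusted p = 0.552). Bmp1, a procollagen protease, fell by 0.46, and it is named after its value was seen. Without KO_chow replicates 2 and 5, 8 genes of the list were called higher and 8 lower in these comparisons, and Itgb6 and Ltbp3 were not among the former (adjusted p = 0.0561 and 0.0817).

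**Figure D4:**
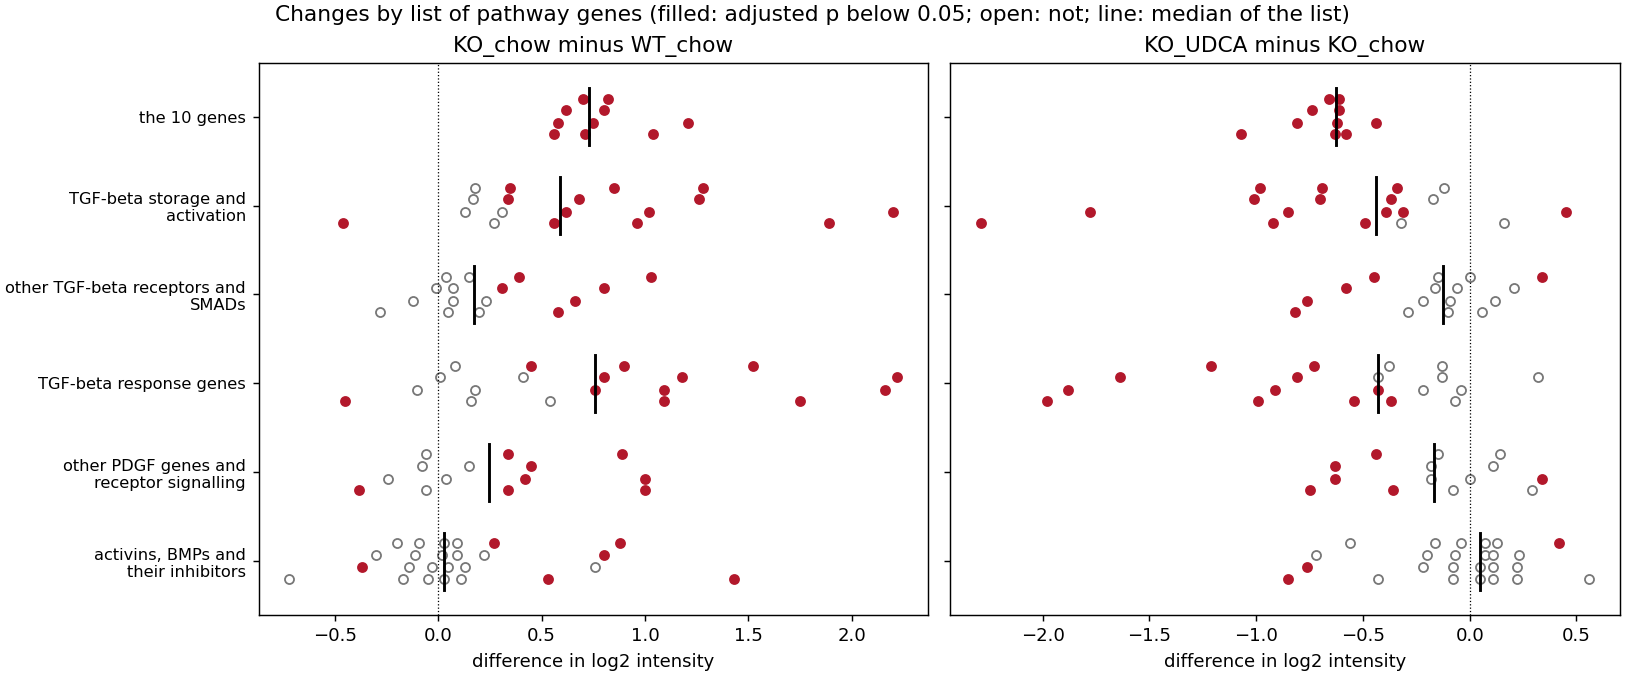
Log2 differences of the 10 genes and of each pathway list, 1 point per gene, filled where the adjusted p was below 0.05, with a line at the median of the list. The medians on the left run from 0.03 for activins and BMPs to 0.76 for TGF-beta response genes, beside 0.73 for the 10 genes.

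On the receptor and SMAD side of the pathway, most genes did not pass the test. Of 16 other receptors and SMADs, 6 were higher and 0 lower in KO_chow (median 0.18), and under UDCA 1 was higher and 4 lower (median -0.12). Over all genes, 7.69% were called higher in KO_chow and 6.22% lower under UDCA. Skil (1.03), Tgif1 (0.80) and Pmepa1 (0.66), each known as a brake on SMAD signalling, rose, as did Smad3 (0.58, adjusted p = 0.00858). Smad7 (0.23, adjusted p = 0.436) and the decoy receptor Bambi (0.20, adjusted p = 0.408) did not pass the test. Tgfbr3, the coreceptor betaglycan, differed by -0.28 in KO_chow (adjusted p = 0.111) and rose by 0.34 under UDCA (adjusted p = 0.0435). The Tgfbr3 rise was not called without any 1 of KO_chow replicates 1, 2, 3 or 5 or KO_UDCA replicates 1, 3, 4, 5 or 6 (adjusted p up to 0.108). With KO_chow replicates 2 and 5 left out, 1 of the 16 was higher, namely Pmepa1, and 0 were lower under UDCA.

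Of 19 measured collagens and other genes that TGF-beta is known to induce, 11 were higher and 1 lower in KO_chow (median 0.76), 7 were not called, and 0 were higher and 11 lower in KO_UDCA against KO_chow (median -0.43). Timp1, an inhibitor of matrix proteases, rose by 2.22 (SE 0.21, 4.65-fold, adjusted p = 1.81e-07), Col1a1 by 2.16 (SE 0.18, 4.47-fold, adjusted p = 3.48e-08), Col3a1 by 1.75 and Col1a2 by 1.52. Tgfbi, a matrix protein named for its induction by TGF-beta, rose by 0.80. Acta2, smooth muscle actin of myofibroblasts, differed by 0.54 (adjusted p = 0.0554) and under UDCA by -0.43 (adjusted p = 0.133). Snai2 fell by 0.45 (adjusted p = 0.0415), a call that ended when WT_chow replicate 1, 2, 4 or 5, or KO_chow replicate 1, 3 or 5, was left out (adjusted p up to 0.117). In KO_UDCA, Col1a1 differed from WT_chow by 0.28 (adjusted p = 0.922) and Timp1 by 0.24 (adjusted p = 0.958). When KO_chow replicates 2 and 5 were left out, 9 were higher and 8 lower in the respective comparisons.

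Of 14 other PDGF genes and signalling partners, 7 were higher and 1 lower in KO_chow (median 0.24), and 1 was higher and 5 lower under UDCA (median -0.17). The count of 7 became 4 in a fit to KO_chow and WT_chow alone. The count of 5 became 3 without KO_UDCA replicate 2, and 2 in a fit to the groups compared alone. Pdgfd, the D chain, rose by 1.00 (SE 0.18, adjusted p = 0.000644), and Pdgfrb, the receptor for the B and D chains, rose by 1.00 (SE 0.13, adjusted p = 1.42e-05). Pdgfrb changed by -0.75 under UDCA (adjusted p = 0.000365) and Pdgfd by -0.63 (adjusted p = 0.0206). The Pdgfd decrease was not called without KO_chow replicate 1 (adjusted p = 0.0599) or KO_UDCA replicate 2 (adjusted p = 0.0521). Src, a kinase recruited by the receptors, rose by 0.89, and Cbl, a ubiquitin ligase that ends their signal, by 0.45 (adjusted p = 0.01, or 0.209 without KO_chow replicates 2 and 5). Plcg1, a phospholipase that binds the receptors, fell by 0.38 (adjusted p = 0.0242), and not without WT_chow replicate 5 (adjusted p = 0.0702) or KO_chow replicate 5 (adjusted p = 0.0909). The rise of Plcg1 under UDCA (0.34, adjusted p = 0.043) lost its call in 11 of 19 alternatives, among them 8 fits that left out 1 mouse, from KO_chow (2, 3, 5) or KO_UDCA (1, 2, 3, 4, 6), with adjusted p-values up to 0.162. Without this pair, 4 of the 14 were higher and 3 lower in the respective comparisons.

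Most genes of the related activin and BMP branch were not called. Over all genes, 7.69% were called higher in KO_chow against WT_chow and 6.22% lower in KO_UDCA against KO_chow. Of 25 measured genes of this branch, 5 were higher and 1 lower in KO_chow (median 0.03). In a fit to KO_chow and WT_chow alone, 2 were higher. Under UDCA, 1 was higher and 2 were lower (median 0.05). The count of 2 lower under UDCA became 4 without KO_chow replicate 1 and 5 without KO_chow replicate 4. Gdf10, a growth factor of the BMP family, rose by 1.43 (SE 0.18, adjusted p = 9.41e-06) and Fstl1 by 0.88, and both were lower under UDCA, by log2 changes of -0.85 and -0.76. Fst, which binds activin, rose by 0.80 (adjusted p = 0.0352), and Inhbb, an activin chain, by 0.53 (adjusted p = 0.0308). Leaving out WT_chow replicate 2, 4 or 5, or KO_chow replicate 2, 3 or 5, ended both calls, with adjusted p-values up to 0.13. Acvr2b, an activin receptor, fell by 0.37 (adjusted p = 0.0144), a call lost without KO_chow replicate 2 (adjusted p = 0.0528) or 5 (adjusted p = 0.0515). Without both mice, 2 of the 25 were higher.

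Markers of some cell types, but not of others, were higher along with the 10 genes in KO_chow against WT_chow. Of monocyte-derived macrophage genes, 11 of 11 were higher, with list means of 6.30 to 7.66 in KO_chow and 5.15 to 5.39 in WT_chow. Of cholangiocyte genes, 9 of 10 were higher (6.02 to 6.73 against 4.93 to 5.05). Of myofibroblast genes, 5 of 9 were higher (6.34 to 7.09 against 5.73 to 5.86), and 7 of these 9 are also on the list of TGF-beta response genes. Of stellate cell genes, 6 of 12 were higher and 1 lower (7.58 to 7.74 against 7.24 to 7.47), and of portal fibroblast genes 4 of 10 were higher (5.50 to 5.74 against 5.14 to 5.29). Neutrophil genes were higher in 5 of 10, in 3 without WT_chow replicate 1 or any 1 of KO_chow replicates 2, 3 and 5, and in 1 without both KO_chow replicates 2 and 5. Without that pair the counts of higher genes were 10 for macrophages, 8 for cholangiocytes, 4 for myofibroblasts, 5 for stellate cells and 3 for portal fibroblasts.

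The remaining lists had few genes higher, or more genes lower than higher. Kupffer cell genes were lower in 5 of 10 and higher in 1 (6.95 to 7.19 against 7.39 to 7.66). Sinusoidal endothelial genes were higher in 1 and lower in 1 of 10, platelet genes higher in 1 of 7, hepatocyte genes higher in 1 of 11, T and NK cell genes higher in 1 of 9, and B and plasma cell genes in 0 of 7 in either direction. These shares are to be read beside the 7.69% of all genes called higher. Without KO_chow replicates 2 and 5, 0 genes were higher in the sinusoidal, platelet, hepatocyte and T and NK cell lists. Leaving out 1 mouse could also end them. The sinusoidal call was lost with any of WT_chow mice 1 to 3 or KO_chow mice 2, 3 and 5 left out. For the platelet call these were WT_chow mice 1, 2, 3 and 5 and KO_chow mice 1, 2, 4 and 5, and for the T and NK cell call WT_chow mice 2 to 5 and KO_chow mice 1 to 3. In KO_UDCA the macrophage list means lay between 5.34 and 5.52, those of cholangiocytes between 5.06 and 5.52, and those of myofibroblasts between 5.66 and 6.45.

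Macrophage genes stood 1.03, 2.39, 1.45, 1.11 and 1.93 above WT_chow in replicates 1 to 5. Myofibroblast genes stood 0.52, 1.05, 0.83, 0.70 and 1.27 above it, and cholangiocyte genes 1.42, 1.75, 1.04, 1.24 and 1.46. Neutrophil genes stood 0.19, 0.72, 0.54, 0.11 and 0.63 above it, and stellate cell genes 0.24, 0.39, 0.38, 0.34 and 0.40. Replicates 2 and 5 were the highest KO_chow mice for each of these 5 lists, as they were for the mean of the 10 genes, although for stellate cells by very little. Portal fibroblast genes did not share this order, at 0.45, 0.45, 0.29, 0.45 and 0.53 above WT_chow. There replicate 5 was highest, and replicate 2 was level with replicates 1 and 4. The part of these cell types in the changes of the 10 genes was not tested.

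**Figure D5:**
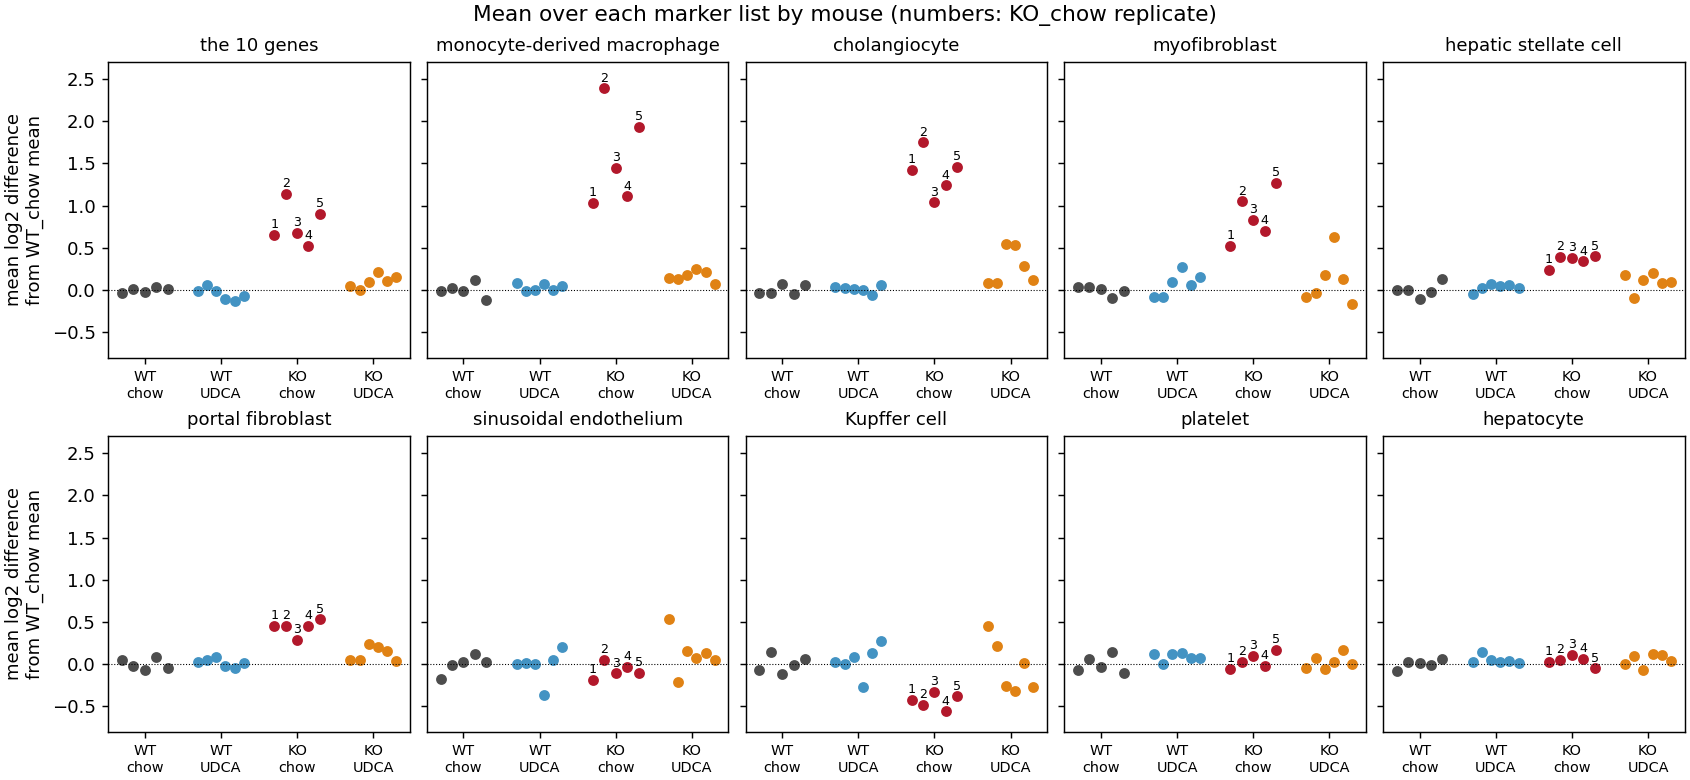
Mean log2 difference from WT_chow over the 10 genes and over 9 lists of cell type markers, 1 point per mouse, with the replicate number beside each KO_chow point. KO_chow replicates 2 and 5 are highest for the 10 genes (1.14 and 0.90) and for the macrophage (2.39 and 1.93), myofibroblast (1.05 and 1.27), cholangiocyte (1.75 and 1.46) and stellate cell (0.39 and 0.40) lists, while the hepatocyte list stays within -0.05 to 0.11 in KO_chow. In the portal fibroblast list, replicate 5 is highest (0.53), and replicates 1, 2 and 4 are level at 0.45.

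The genes most like each member were sought by the root mean square difference over the 22 arrays. Each gene was first centred on its WT_chow mean. Genes with symbols of predicted or RIKEN genes, small RNAs, and olfactory or vomeronasal receptors were left out of the search. Tgfb1 lay nearest to Msn (0.16), Fmnl2 (0.16) and Itgb2 (0.18), the last an integrin chain of leukocytes. Tgfb2 lay nearest to Ahnak (0.21), Anxa3 (0.25) and Nfkb2 (0.26), and none of these came as close as the neighbours of the other genes. Tgfb3 lay nearest to Rcn3, Dnm3os and Lgi2 (0.16 each), and Pdgfra to Lama2 (0.16), Timp2 (0.18) and Adamtsl2 (0.19). Ltbp2 lay nearest to Col8a1 (0.12), a collagen, followed by Epb41l1 (0.13) and Lpcat1 (0.15). For Pdgfb they were Tead1 (0.14), Col5a2 (0.15) and Far1 (0.15), and Far1 (0.18) also followed Lbh (0.14) and Grk5 (0.17) for Pdgfc. Tgfbr1 had Rps6ka3 (0.15), Trak2 (0.15) and Kif5b (0.16), Tgfbr2 had Dsp, Cyb561 and Cd2ap (0.17 each), and Pdgfa had Ajuba (0.14), Serpina10 (0.16) and Lama5 (0.18). All arrays enter each of these values, so they describe shared level patterns and no test was made of them.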

How the data were processed

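Liver RNA of 22 mice was measured on 1 array per mouse. Per the labels, the authors deposited probe-level-model RMA intensity values on the unlogged scale, with RMA named without a version in the submitters' processing notes. No genome build is named in the labels or the file. Of 24973 deposited rows, 24015 had 1 gene symbol in the platform annotation. The other 958 did not have a single symbol and were not analysed here. A symbol present on more than 1 row (4 of them) was taken from its brightest row, which left 24011 genes. Intensities ran from 1.66 to 10284 with array medians of 28.7 to 31.1, and the number of arrays limits the precision.

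Values were converted to log2 without a pseudocount or a filter. The linear model of limma 3.58.1 (R 4.3.3, version 1.17.8 of data.table) held 1 mean for each group and used every array, so the 4 groups share a variance estimate, and a gene was called at a two-sided adjusted p below 0.05 (Benjamini-Hochberg over 24011 genes). The wider spread in KO_chow can make p-values of comparisons with that group too small. The script was tested on simulated data.

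The members and lists were chosen with earlier results of these data known. All members are named, as are up to 4 called genes of each pathway list with the largest absolute change between KO_chow and WT_chow. Also named are 16 further pathway genes fixed by name, and the 3 nearest genes of each member after the filter by symbol. Genes of the lists that fell in KO_chow are outside this rule and were chosen after their values were seen. Listed genes that matched no named row were not analysed here. Alternatives were a fit to the groups compared alone, array weights by group, trended and robust variances, quantile normalization, a pseudocount of 16, a filter on dim genes, a term for the stretch of the record list, and leaving out each mouse. Leaving out KO_chow replicates 2 and 5 was added after seeing the data.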

Additional observations from a re-analysis of the deposited data

Results flagged for a closer look

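For 4 genes the effect of UDCA differed between knockouts and wild types by the interaction test (limma, adjusted p below 0.05). The difference of the log2 changes was -0.69 for Tgfb3, -0.57 for Ltbp2, -0.72 for Pdgfb and -0.62 for Pdgfra. In each of the 4, the change was negative in knockouts (-0.44, -0.58, -0.74 and -0.61). In wild types none of them passed the test, with changes of 0.25, 0.00, -0.02 and 0.01. With 1 mouse left out, 2 to 6 of the 10 genes were called. The calls of Pdgfra and Ltbp2 ended in 11 and 3 of those fits, wild-type mice among those left out. The interaction uses the same KO_chow mice as the comparison of genotypes on chow, so it is not a separate observation.

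A mouse stood apart from its group in 2 of 40 groups checked, where chance gives about 1 in 20. Pdgfa in KO_UDCA replicate 1 was at 5.67, while the other 5 KO_UDCA mice lay between 6.06 and 6.26. Pdgfra in KO_chow replicate 1 was at 7.69, while the other 4 KO_chow mice lay between 7.13 and 7.29.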

How the results depend on the processing

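Each of the 10 genes kept its direction in KO_chow against WT_chow, in KO_UDCA against KO_chow and in the interaction under each alternative other than the filter on dim genes, which leaves a direction as it is and so bears only on calls. That filter left 12906 genes, left out Tgfb2 and kept Pdgfb only through the 5 KO_chow arrays. With 1 mouse left out, 10 of the 10 were called in the first comparison, 9 to 10 in the second and 2 to 6 in the interaction, where 4 were called with all mice. The lowest interaction count, 2, came without KO_chow replicate 2, and 2 were also called without replicates 2 and 5. The call of Ltbp2 in the interaction ended without KO_chow replicate 2 (adjusted p = 0.0565) or 5 (0.0507) or WT_chow replicate 5 (0.0504), and that of Pdgfra in 11 fits that left out 1 mouse (0.0518 to 0.0623). The cause was not tested. No paired analysis was possible because the labels number the mice serially across groups, so no replicate number is shared.

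Differences near 0 that were not called with all mice changed sign in some fits. With quantile normalization, Ltbp2 in KO_UDCA against WT_chow was -0.006. With 1 mouse left out, the log2 differences from WT_chow in KO_UDCA ran from -0.025 to 0.069 for Tgfbr1, from -0.057 to 0.047 for Ltbp2 and from -0.091 to 0.026 for Pdgfa. In KO_UDCA against WT_UDCA, Ltbp2 ran from -0.048 to 0.051. In WT_UDCA against WT_chow they ran from -0.005 to 0.083 for Tgfb2, -0.061 to 0.029 for Ltbp2, -0.046 to 0.016 for Pdgfb and -0.039 to 0.091 for Pdgfra.

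Over all genes, 3295 were called between KO_chow and WT_chow, 2008 in a fit to those groups alone and 1089 without KO_chow replicates 2 and 5. Between KO_UDCA and KO_chow, 2701 were called, 1454 in the fit to those groups, 1652 and 1632 without KO_chow replicate 2 or 5, and 673 without both. In the interaction, 642 were called, 301 to 1219 with 1 mouse left out and 207 without the pair. Between KO_UDCA and WT_chow, 6 were called, and 3 to 11 across alternatives. The 4 between KO_UDCA and WT_UDCA became 1 in several fits, and the 0 between WT_UDCA and WT_chow became 1.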
